A study of Homo sapiens with 16 samples.

Results

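Aldehyde dehydrogenases were followed at the RNA level in a pair of human lung cancer cell lines, A549 and H2023, both long established from non-small cell tumours. The members were 8 genes chosen by name: ALDH1A1, ALDH1A3, ALDH2, ALDH3A1, ALDH3A2, ALDH3B1, ALDH7A1 and ALDH9A1. All 8 were found among the 18227 genes of the deposited tables. The study set cells labelled as knockout for ZC3H12A, the gene of the RNase Regnase-1, against wild-type cells of the same line. Normal culture lasted 3 days and the culture that enriches for stem-like cells, called oncosphere culture here, lasted 7 days, so that culture type and days change together. This gave 8 groups: A549 and H2023, wild type and labelled knockout, in normal and in oncosphere culture, with 2 libraries in each. The titles of the knockout libraries name 1 clone per line, and no label says whether libraries of a group came from separate cultures, so p-values measure only the spread between these libraries.

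Aldehyde dehydrogenases oxidise aldehydes to carboxylic acids with NAD or NADP as the electron acceptor. Some make signalling molecules, as ALDH1A1 and ALDH1A3 do when they turn retinaldehyde into retinoic acid, and others remove reactive aldehydes that come from ethanol, lipid peroxidation or amino acid breakdown. High aldehyde dehydrogenase activity, read with a fluorescent substrate, is widely used to sort stem-like cells from tumours, including lung cancer.

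The libraries labelled knockout did not have uniformly less ZC3H12A mRNA. Its level was 16.90 and 19.93 TPM in the labelled A549 knockout against 30.72 and 34.88 TPM in wild type in normal culture, but higher than wild type in the other 3 comparisons, for example 94.61 and 69.18 against 32.54 and 26.41 TPM in H2023 oncosphere culture. An edit need not lower the mRNA, so this does not check the label, and the groups are called by their labels here. The mitochondrial share of a library ran from 10.3% to 18.7% in normal culture, and from 19.5% to 25.6% in oncosphere culture. The 2 wild-type H2023 oncosphere libraries stood apart from each other, with summed levels of the 8 members of 2940.9 and 1528.7 TPM, and the fold changes that rest on them are also given without the lower library, replicate 2.

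Promoter windows of 4 members are shown because they belong to the pair of members with the most similar levels across the groups (ALDH1A1 and ALDH7A1) and to the other 2 members that also hold a CCAAT box. RefSeq (GRCh38.p14) gave windows of 300 bases, from 250 bases before to 50 after a start site, for 6 of the 8 members. ALDH2 and ALDH3A1 have no entry. Capitals mark CCAAT, and each line runs 5′ to 3′ on the gene's strand.
ALDH1A1, chr9:72953004-72953303, minus strand: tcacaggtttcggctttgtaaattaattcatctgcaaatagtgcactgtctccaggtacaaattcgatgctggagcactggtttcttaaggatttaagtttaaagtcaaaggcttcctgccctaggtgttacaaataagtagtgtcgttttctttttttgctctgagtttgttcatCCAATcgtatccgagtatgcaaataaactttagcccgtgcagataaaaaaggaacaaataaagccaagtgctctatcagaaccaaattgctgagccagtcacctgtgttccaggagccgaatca
ALDH7A1, chr5:126595170-126595469, minus strand: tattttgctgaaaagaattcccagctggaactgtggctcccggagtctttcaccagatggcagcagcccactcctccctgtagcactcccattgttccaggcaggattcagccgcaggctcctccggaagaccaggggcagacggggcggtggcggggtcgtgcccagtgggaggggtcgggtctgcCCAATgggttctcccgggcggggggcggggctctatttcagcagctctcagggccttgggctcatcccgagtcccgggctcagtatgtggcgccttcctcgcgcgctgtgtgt
ALDH1A3, chr15:100879581-100879880, plus strand: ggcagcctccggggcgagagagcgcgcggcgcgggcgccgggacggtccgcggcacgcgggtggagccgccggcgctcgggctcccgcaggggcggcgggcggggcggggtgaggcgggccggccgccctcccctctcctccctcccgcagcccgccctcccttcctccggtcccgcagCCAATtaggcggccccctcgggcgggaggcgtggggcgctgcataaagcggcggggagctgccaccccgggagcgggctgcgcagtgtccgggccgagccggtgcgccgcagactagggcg
ALDH3A2, second of its windows, chr17:19648501-19648800, plus strand: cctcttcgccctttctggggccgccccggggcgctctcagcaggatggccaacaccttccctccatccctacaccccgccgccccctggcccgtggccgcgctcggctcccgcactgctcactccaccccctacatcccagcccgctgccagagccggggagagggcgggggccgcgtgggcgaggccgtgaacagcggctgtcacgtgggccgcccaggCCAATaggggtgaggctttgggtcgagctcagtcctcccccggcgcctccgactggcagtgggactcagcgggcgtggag
CCAAT was found on the gene's own strand, starting 74 bases before the start site in ALDH1A1, 63 in ALDH7A1, 71 in ALDH1A3 and 30 in ALDH3A2. On either strand, CCAAT occurs in 34.6% of all 35116 windows of this length. The window of ALDH1A1 is poor in G and C, at 40.3%, and that of ALDH1A3 is rich, at 81.7% with 46 CpG, against medians of 58.7% and 14 CpG over all windows. The antioxidant response element core TGACNNNGC, searched on both strands, was in none of the member windows and in 13.3% of all windows. The dioxin response element core GCGTG was in those of ALDH1A3 and ALDH3A2 and in 36.5% of all windows, and TATAAA was in none of the member windows and in 11.5% of all.

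By TPM, which divides by transcript length and so allows levels of different genes to be compared, ALDH1A1 was the leading member in 15 of 16 libraries. The exception was wild-type H2023 oncosphere replicate 1, where ALDH3A1 was slightly higher. ALDH1A1 ranked between 19 and 202 among all genes. ALDH3A1 was second in 15 libraries, at 321.93 to 1053.64 TPM, and ALDH1A3 was the lowest in all of them, at 0.20 to 9.71 TPM. The 8 members together summed to between 1528.7 and 6181.3 TPM, and ALDH1A1 supplied between 35.5% and 77.9% of that sum. They held 92.0% to 97.5% of the TPM of all 17 aldehyde dehydrogenase genes measured.

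**Figure D1:**
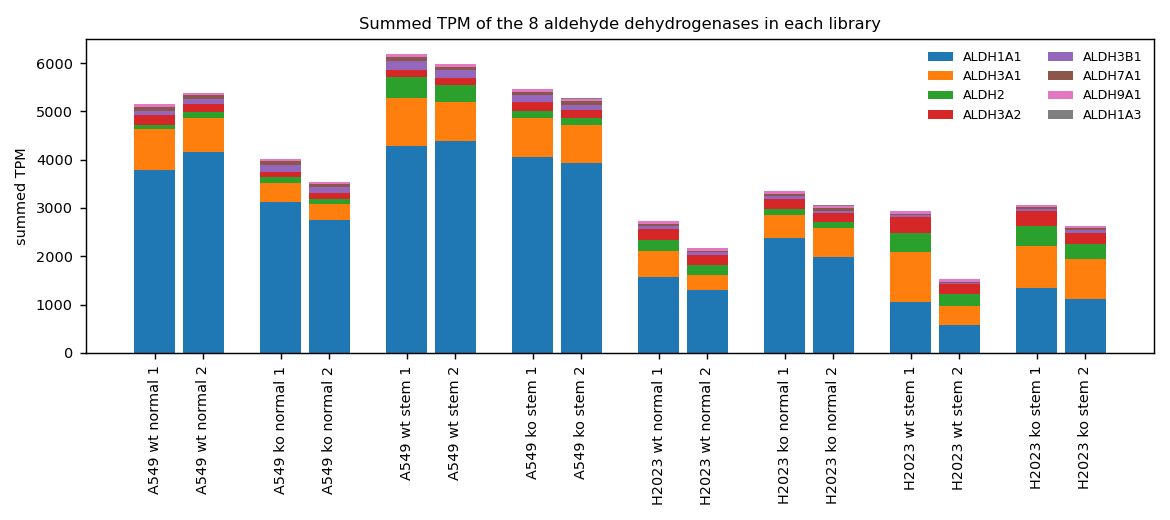
Summed TPM of the 8 members in each of the 16 libraries (y axis, linear from 0), stacked by gene; wt is wild type, ko the libraries labelled knockout, stem the oncosphere culture. The A549 wild-type oncosphere libraries have the tallest bars, 6181.3 and 5981.2 TPM, and the wild-type H2023 oncosphere replicate 2 has the shortest, 1528.7 TPM.

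The A549 sum in normal culture was 5265 ± 163 TPM (SD, n = 2) for wild type and 3779 ± 334 TPM for the labelled knockout. In oncosphere culture it was 6081 ± 142 TPM and 5368 ± 141 TPM. In H2023 the mean of the labelled knockout was the higher one, with 2447 ± 397 TPM for wild type and 3204 ± 216 TPM for the labelled knockout in normal culture, and 2235 ± 999 TPM and 2847 ± 304 TPM in oncosphere culture. The H2023 pairs did not overlap in normal culture but did in oncosphere culture, where wild-type replicate 1 alone, at 2940.9 TPM, lay above the mean of the labelled knockout. These sums are descriptions with no test.

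In the libraries labelled knockout, ALDH3A1 and ALDH3A2 fell in A549 normal culture and ALDH2 fell in A549 oncosphere culture. No member passed in H2023 by the same test. Differences were tested with limma on log2(TPM + 1), which understates the change of low genes, and a gene passed at an adjusted p under 0.05 over all 18227 genes. In A549 normal culture 0 members rose and 2 fell, where 4.54% of all genes rose and 6.28% fell. In A549 oncosphere culture 1 member fell and 0 rose, where 6.04% of all genes rose and 7.2% fell. In H2023 limma called 0 members in either culture and 0% of all genes, while 3 members in normal culture and 0 in oncosphere culture had an unadjusted p under 0.05, against 18.2% and 15.5% of all genes. The authors' deposited table called 4, 2, 2 and 0 members in A549 normal, A549 oncosphere, H2023 normal and H2023 oncosphere culture, against 22.1%, 20.7%, 10.8% and 5.07% of the genes it gives an adjusted p-value. Each of the 3 limma calls between genotypes was lost when any 1 of the 4 libraries was left out. That holds for more than the members: with 1 library left out, 0 of all genes were called in A549 normal culture under every omission and in oncosphere culture under all but 1, which left 38.

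**Figure D2:**
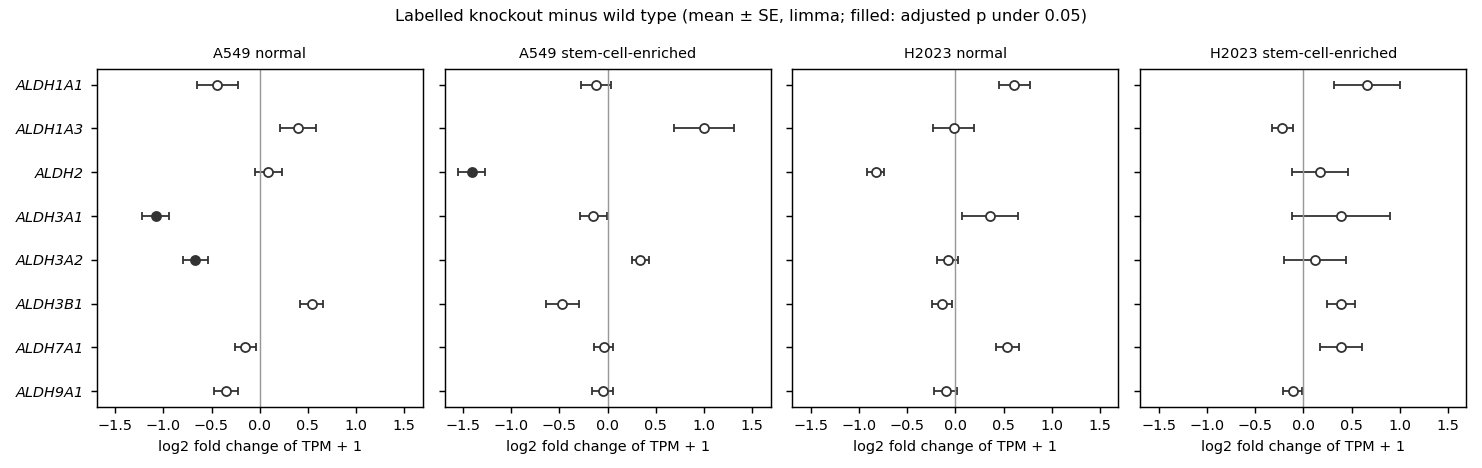
Log2 fold change of TPM + 1, labelled knockout minus wild type (x axis), for each member (y axis) in the 4 line and culture combinations; points are limma estimates, bars their SE, filled points passed at an adjusted p under 0.05. ALDH3A1 and ALDH3A2 are filled below 0 in A549 normal culture and ALDH2 in A549 oncosphere culture.

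Across these comparisons the knockout change itself was compared, as an interaction term. Between the A549 cultures it differed for 4 members (ALDH2, ALDH3A1, ALDH3A2 and ALDH3B1), where 6.65% of all genes passed. Between the H2023 cultures limma called 0 members and 0% of all genes, with 2 members and 7.1% of genes at an unadjusted p under 0.05, and the interaction computed from the authors' deposited tables called 0 members and 0.506% of genes. Between the lines it differed for 5 members in normal culture (12.3% of all genes) and for 1, ALDH2, in oncosphere culture (9.85%). The 5 calls in normal culture became 0 in a fit of all 16 libraries, which called 2199 genes, with adjusted p from 0.0565 to 0.0775, and the 1 in oncosphere culture became 3. Each of these 10 calls was lost when 1 library or another was left out, ALDH3A1 between A549 cultures under all 8 omissions and ALDH2 between A549 cultures under 3 of 8.

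Oncosphere culture was set against normal culture in a fit of the 8 libraries of each line. ALDH1A3 fell in both genotypes of both lines, and the rise of ALDH2 passed in A549 wild type and in the labelled H2023 knockout. In A549 wild type 3 members rose and 2 fell, where 19% of all genes rose and 21.6% fell. In the labelled A549 knockout 3 rose and 1 fell, against 10.9% and 9.87% of all genes. In H2023 wild type 0 rose and 1 fell, against 3.96% and 17.4%, and in the labelled H2023 knockout 1 rose and 2 fell, against 7.68% and 19.2%. With 1 library left out, 4 of these 13 calls could be lost: ALDH9A1 in A549 wild type (7 of 8 omissions), ALDH1A3 (6 of 8) and ALDH3A2 (3 of 8) in the labelled A549 knockout, and ALDH7A1 in the labelled H2023 knockout (6 of 8). The median change of all genes was -0.18 in H2023 wild type and -0.12 in the labelled H2023 knockout, so changes there are to be read against those shifts. In bulk RNA, fewer cells expressing a gene and less RNA per cell cannot be told apart.

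**Figure D3:**
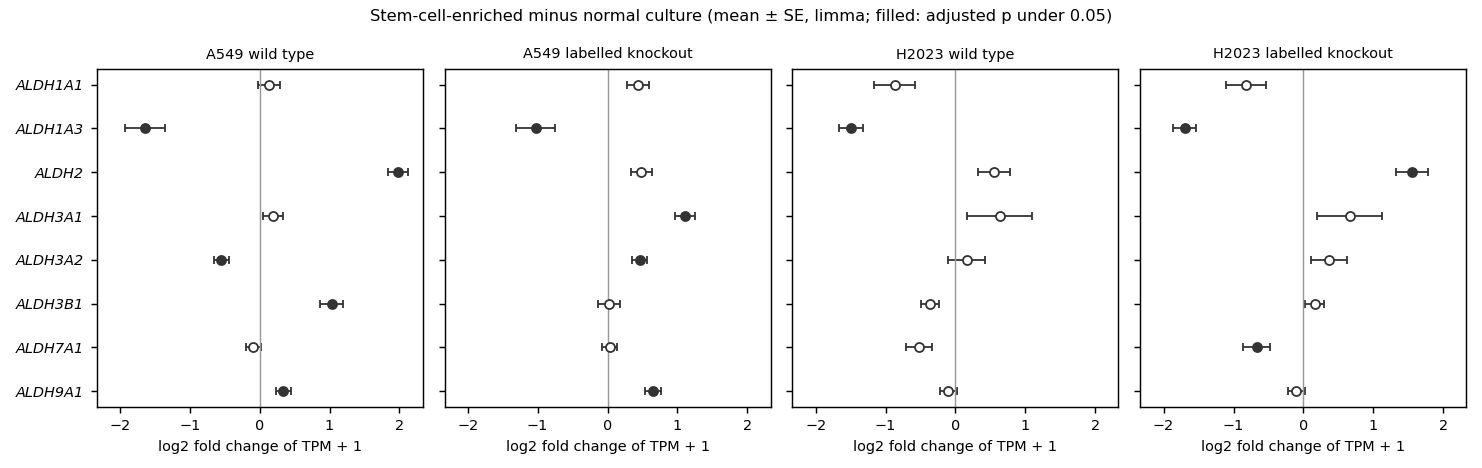
Log2 fold change of TPM + 1, oncosphere minus normal culture (x axis), for each member (y axis) in wild type and labelled knockout of each line; points are limma estimates, bars their SE, filled points passed at an adjusted p under 0.05. ALDH1A3 is filled below 0 in all 4 panels, and ALDH2 is filled above 0 in A549 wild type and in the labelled H2023 knockout.

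Wild-type H2023 was also set against wild-type A549, and ALDH1A1, ALDH3B1 and ALDH7A1 were lower in H2023 in both cultures. In normal culture 1 member was higher and 4 lower in H2023, where 22% of all genes were higher and 12.4% lower and the median change was 0.12. In oncosphere culture 1 was higher and 3 were lower, against 15.8% and 17.8% of all genes. All of these 9 calls were lost when either A549 library was left out, and so was every other call among all genes.

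**Figure D4:**
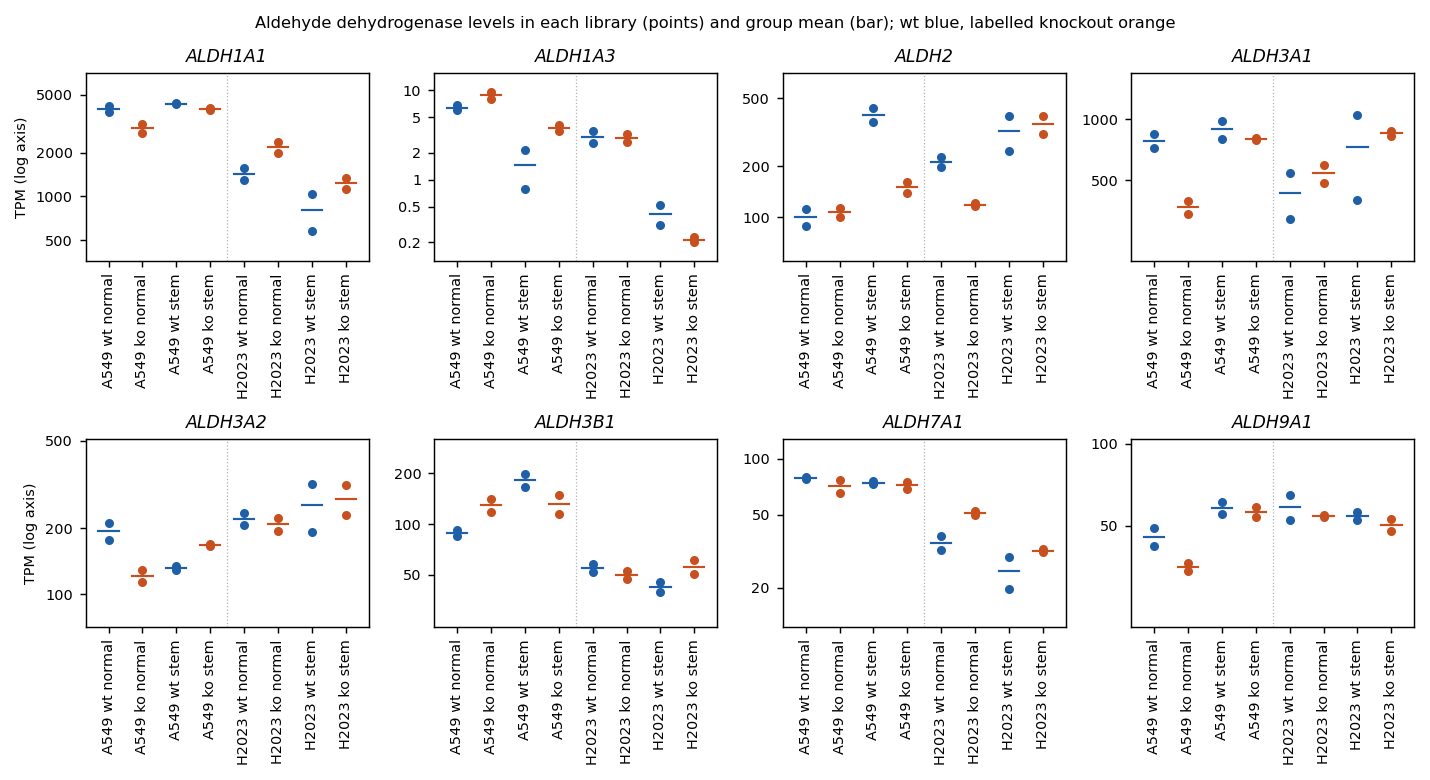
TPM of each member (y axis, log scale, one panel per gene) in the 8 groups (x axis); each point is a library, each bar the mean of 2, wild type in blue and labelled knockout in orange. ALDH1A1 lies between 2746.22 and 4388.92 TPM in A549 and at most at 2369.20 TPM in H2023, and ALDH3A1 is lower in the labelled A549 knockout in normal culture (397.33 and 340.94 TPM) than in any other A549 group.

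ALDH1A1 (chr9:72900662-73080442, minus strand, GRCh38) is the cytosolic retinaldehyde dehydrogenase most often used to mark stem-like cells. In A549 it was 3789.78 and 4149.82 TPM in wild-type normal culture, 3126.10 and 2746.22 TPM in the labelled knockout, and in oncosphere culture 4290.47 and 4388.92 TPM in wild type and 4045.55 and 3930.66 TPM in the labelled knockout. The H2023 levels were 1567.62 and 1293.10 TPM in wild-type normal culture, 2369.20 and 1988.03 TPM in the labelled knockout, 1043.59 and 579.14 TPM in wild-type oncosphere culture and 1349.13 and 1117.94 TPM in the labelled knockout. Its levels did not overlap between the lines, and within each culture the labelled knockout lay below wild type in A549 and above it in H2023. None of its knockout changes passed in limma. The change was -0.44 ± 0.21 (log2, SE) in A549 normal culture with an adjusted p of 0.218, and -0.12 ± 0.16 in A549 oncosphere culture with an adjusted p of 0.65. It was 0.61 ± 0.16 in H2023 normal culture (adjusted p 0.209) and 0.66 ± 0.34 in H2023 oncosphere culture (adjusted p 0.433), the last falling to 0.23 without wild-type replicate 2. The authors' deposited table gave -0.38 with an adjusted p of 0.0247 in A549 normal culture and 0.59 with an adjusted p of 0.000216 in H2023 normal culture. The difference between lines passed in normal culture and not in oncosphere culture. The knockout change in H2023 minus that in A549 was 1.04 ± 0.23 in normal culture (adjusted p 0.0277) and 0.78 ± 0.38 in oncosphere culture (adjusted p 0.241). The oncosphere estimate was 0.36 without H2023 wild-type replicate 2 and 1.21 without replicate 1. Culture left ALDH1A1 without a called change. The estimates were 0.13 ± 0.16 in A549 wild type and 0.44 ± 0.16 in the labelled A549 knockout, and -0.87 ± 0.29 in H2023 wild type and -0.82 ± 0.29 in the labelled H2023 knockout (adjusted p 0.558, 0.0903, 0.0777 and 0.0814). Without wild-type oncosphere replicate 2, the H2023 wild-type estimate was -0.45 (adjusted p 0.231), and without replicate 1 it was -1.30 and passed (adjusted p 0.0234). The estimate in the labelled H2023 knockout passed when either wild-type oncosphere library was left out (-0.82, adjusted p 0.0243 and 0.0238). Wild-type H2023 was lower than wild-type A549 by -1.48 ± 0.17 in normal culture (adjusted p 0.00535) and by -2.48 ± 0.31 in oncosphere culture (adjusted p 0.0075), or -2.05 without replicate 2.

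ALDH1A3 (chr15:100877714-100916626, plus strand), the other retinaldehyde dehydrogenase, moved differently at a far lower level. It was 6.87 and 5.98 TPM in A549 wild-type normal culture and 9.71 and 7.96 TPM in the labelled knockout, then 0.80 and 2.16 TPM and 4.12 and 3.47 TPM in oncosphere culture. H2023 had 2.56 and 3.52 TPM in wild-type normal culture and 2.65 and 3.27 TPM in the labelled knockout, then 0.31 and 0.53 TPM and 0.20 and 0.23 TPM in oncosphere culture. In both lines and both genotypes all oncosphere libraries lay below the normal ones of the same group. The fall with culture was -1.64 ± 0.28 in A549 wild type (adjusted p 0.00238) and -1.03 ± 0.28 in the labelled A549 knockout (adjusted p 0.0326). In H2023 it was -1.50 ± 0.17 in wild type (adjusted p 0.00393), or -1.61 without replicate 2, and -1.70 ± 0.17 in the labelled knockout (adjusted p 0.00154). The knockout change was 0.40 ± 0.19 in A549 normal culture (adjusted p 0.21) and 1.00 ± 0.31 in A549 oncosphere culture (adjusted p 0.0978), for which the authors' deposited table gave 1.29 with an adjusted p of 0.036. The difference between cultures of the A549 knockout change was 0.60 ± 0.39 (adjusted p 0.378), and that between lines in oncosphere culture was -1.22 ± 0.37 (adjusted p 0.0821), or -1.11 without H2023 wild-type replicate 2. Between wild types, H2023 was lower by -0.89 ± 0.22 in normal culture (adjusted p 0.0339) and by -0.75 ± 0.30 in oncosphere culture (adjusted p 0.111), or -0.86 without replicate 2. In H2023 oncosphere culture the authors' mean normalized count of ALDH1A3 was 14, so it was near the floor there. An antisense transcript of the gene, ALDH1A3-AS1, was listed at up to 3.97 TPM. Its mean fell with culture from 1.455 to 0.735 TPM in A549 wild type and from 3.215 to 1.285 TPM in the labelled knockout. In H2023 it fell from 2.505 to 0.38 TPM and from 3.88 to 0.985 TPM. Whether the counting used strand is not given in the sources used here, and its part in the ALDH1A3 values was not tested.

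ALDH2 (chr12:111766887-111817529, plus strand), the mitochondrial enzyme that clears acetaldehyde from ethanol, had the largest called knockout change of the members. It was 89.15 and 112.03 TPM in A549 wild-type normal culture and 113.27 and 100.62 TPM in the labelled knockout, and in oncosphere culture 437.83 and 362.25 TPM in wild type and 161.39 and 138.88 TPM in the labelled knockout. In H2023 it was 226.93 and 198.27 TPM in wild-type normal culture and 117.09 and 120.75 TPM in the labelled knockout, and in oncosphere culture 394.48 and 245.85 TPM in wild type and 395.26 and 309.02 TPM in the labelled knockout. The labelled knockout lay below wild type in A549 oncosphere culture and in H2023 normal culture, and overlapped it in the other 2 comparisons. The knockout change was -1.41 ± 0.14 in A549 oncosphere culture (adjusted p 0.00593), where the authors' deposited table gave -1.42 with an adjusted p of 2.25e-14. In A549 normal culture it was 0.09 ± 0.14 (adjusted p 0.685). It was -0.83 ± 0.09 in H2023 normal culture (adjusted p 0.119), where the authors' deposited table gave -0.85 with an adjusted p of 1.47e-09, and 0.17 ± 0.29 in H2023 oncosphere culture (adjusted p 0.813), or -0.17 without wild-type replicate 2. The knockout change differed between cultures in A549 by -1.50 ± 0.21 (adjusted p 0.0126), and in H2023 the same difference was 1.00 ± 0.33 (adjusted p 0.655), or 0.66 without wild-type replicate 2. It differed between lines in both cultures with opposite signs, by -0.92 ± 0.18 in normal culture (adjusted p 0.0189) and by 1.57 ± 0.33 in oncosphere culture (adjusted p 0.029), or 1.23 without H2023 wild-type replicate 2. ALDH2 rose with culture past the threshold in 2 of the 4 backgrounds, and its estimate was positive in the others too. It rose 3.96-fold in A549 wild type (1.98 ± 0.15, adjusted p 7.95e-05) and 2.92-fold in the labelled H2023 knockout (1.55 ± 0.23, adjusted p 0.00521). The changes of 0.48 ± 0.15 in the labelled A549 knockout (adjusted p 0.0558) and 0.55 ± 0.23 in H2023 wild type (adjusted p 0.14) did not pass. The latter was 0.89 without wild-type oncosphere replicate 2 and 0.21 without replicate 1. Wild-type H2023 was above wild-type A549 by 1.08 ± 0.15 in normal culture (adjusted p 0.0076) and differed by -0.35 ± 0.26 in oncosphere culture (adjusted p 0.331), or -0.01 without replicate 2.

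The ALDH2 level carries an uncertainty of mapping. Of its 50-base sequences, 9.15% occur in other genes, most of them in ENSG00000257767, a gene on the same strand that overlaps it. That gene had 110.67 and 75.72 TPM in A549 wild-type oncosphere culture, 40.05 and 38.90 TPM in the labelled knockout, and 12.02 and 21.80 TPM in wild-type normal culture, so that it was highest in the same A549 group as ALDH2. With its TPM added to that of ALDH2, the A549 oncosphere knockout change was -1.37 (adjusted p 0.00704), and the culture change in the labelled A549 knockout was 0.57 and passed (adjusted p 0.0402).

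ALDH3A1 (chr17:19737984-19748943, minus strand) is a cytosolic enzyme of medium-chain and aromatic aldehydes, abundant in cornea and in many lung cancers. In A549 it was 842.44 and 720.59 TPM in wild-type normal culture and 397.33 and 340.94 TPM in the labelled knockout, and in oncosphere culture 984.15 and 802.16 TPM and 808.97 and 787.24 TPM. H2023 libraries had 542.81 and 321.93 TPM in wild-type normal culture and 486.93 and 594.65 TPM in the labelled knockout, and in oncosphere culture 1053.64 and 400.53 TPM and 873.14 and 829.64 TPM. The labelled A549 knockout in normal culture lay below the other A549 groups, and the wild-type H2023 pairs were wide. Of its 4 knockout changes, the one in A549 normal culture passed in limma. It was -1.08 ± 0.14 in A549 normal culture (adjusted p 0.0169), a fall to 0.473 of wild type, and the authors' deposited table gave -1.02 with an adjusted p of 6.01e-11. In A549 oncosphere culture it was -0.15 ± 0.14 (adjusted p 0.512), and the 2 changes differed by 0.93 ± 0.20 (adjusted p 0.0391). In H2023 it was 0.36 ± 0.29 in normal culture (adjusted p 0.55) and 0.39 ± 0.51 in oncosphere culture (adjusted p 0.745), the last turning to -0.31 without wild-type replicate 2. In normal culture the knockout change differed between lines by 1.44 ± 0.33 (adjusted p 0.0309). The rise with culture passed in 1 of the 4 backgrounds. It was 2.17-fold in the labelled A549 knockout (1.11 ± 0.14, adjusted p 0.00168), and the estimate was 0.19 ± 0.14 in A549 wild type (adjusted p 0.33). In H2023 the change was 0.63 ± 0.46 in wild type (adjusted p 0.365), or 1.33 without replicate 2, and 0.66 ± 0.46 in the labelled knockout (adjusted p 0.333). Between wild types, H2023 differed from A549 by -0.90 ± 0.27 in normal culture (adjusted p 0.0547) and by -0.45 ± 0.47 in oncosphere culture (adjusted p 0.49). The last turned to 0.25 without H2023 replicate 2 and was -1.15 without replicate 1.

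ALDH3A2 (chr17:19648136-19677598, plus strand), the fatty aldehyde dehydrogenase of the endoplasmic reticulum, lies 60385 bases from ALDH3A1. It was 210.19 and 176.85 TPM in A549 wild-type normal culture and 113.58 and 129.31 TPM in the labelled knockout, and in oncosphere culture 134.57 and 129.12 TPM and 168.71 and 165.60 TPM. In H2023 it was 233.32 and 206.97 TPM in wild-type normal culture, 221.61 and 193.97 TPM in the labelled knockout, and in oncosphere culture 317.81 and 191.03 TPM and 313.52 and 230.08 TPM. In A549 the order of the genotypes turned with culture, with the labelled knockout below wild type in normal culture and above it in oncosphere culture, while the H2023 groups overlapped. The knockout change was -0.67 ± 0.13 in A549 normal culture (adjusted p 0.0377) and 0.34 ± 0.09 in A549 oncosphere culture (adjusted p 0.0703), and the difference of 1.01 ± 0.16 passed (adjusted p 0.0183). The authors' deposited table gave -0.59 with an adjusted p of 0.000127 in normal culture. The difference between lines in normal culture was 0.58 ± 0.18 (adjusted p 0.0715). With culture ALDH3A2 fell by 0.55 ± 0.11 on the log2 scale in A549 wild type (adjusted p 0.00616) and rose by 0.46 ± 0.11 in the labelled A549 knockout (adjusted p 0.0238), and it changed by 0.37 ± 0.26 in the labelled H2023 knockout (adjusted p 0.336). Between wild types it differed by 0.19 ± 0.13 in normal culture (adjusted p 0.302) and was higher in H2023 by 0.90 ± 0.26 in oncosphere culture, at the threshold with an adjusted p of 0.05, a call also lost with H2023 wild-type replicate 1 left out (0.53) and kept without replicate 2 (1.26).

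ALDH3B1 (chr11:68008578-68029282, plus strand), a membrane-bound enzyme of lipid-derived aldehydes, was 84.99 and 92.50 TPM in A549 wild-type normal culture and 141.56 and 117.98 TPM in the labelled knockout. In A549 oncosphere culture it was 199.56 and 165.89 TPM in wild type and 149.27 and 115.07 TPM in the labelled knockout. The H2023 values were 51.86 and 57.98 TPM and 52.25 and 47.04 TPM in normal culture, and 45.31 and 39.31 TPM and 50.67 and 61.01 TPM in oncosphere culture, wild type first. All A549 libraries lay above all H2023 libraries, and in A549 the labelled knockout was above wild type in normal culture and below it in oncosphere culture. The knockout change was 0.54 ± 0.12 in A549 normal culture with an adjusted p of 0.0535, just outside the threshold, and 0.63 with an adjusted p of 0.000255 in the authors' deposited table. It was -0.47 ± 0.17 in A549 oncosphere culture (adjusted p 0.13), and the 2 differed by -1.01 ± 0.22 (adjusted p 0.0392). In H2023 oncosphere culture it was 0.39 ± 0.15 (adjusted p 0.33), or 0.29 without wild-type replicate 2. The difference between cultures in H2023 was 0.53 ± 0.19 (adjusted p 0.668), or 0.43 without that library, and that between lines was -0.68 ± 0.17 in normal culture (adjusted p 0.0384) and 0.86 ± 0.24 in oncosphere culture (adjusted p 0.0678), or 0.76 without it. Of the 4 culture comparisons, A549 wild type passed. ALDH3B1 rose 2.04-fold in A549 wild type (1.03 ± 0.16, adjusted p 0.0015) and changed by 0.02 ± 0.16 in the labelled A549 knockout (adjusted p 0.95), -0.37 ± 0.13 in H2023 wild type (adjusted p 0.094, estimate -0.27 without replicate 2) and 0.16 ± 0.13 in the labelled H2023 knockout (adjusted p 0.41). Wild-type H2023 was lower than A549 by -0.68 ± 0.11 in normal culture (adjusted p 0.0108) and -2.08 ± 0.15 in oncosphere culture (adjusted p 0.00334), or -1.98 without replicate 2.

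ALDH7A1 (chr5:126531200-126595418, minus strand), the enzyme of lysine breakdown also called antiquitin, was 77.77 and 79.95 TPM and 76.79 and 65.42 TPM in A549 normal culture, wild type first. In A549 oncosphere culture it was 72.97 and 75.48 TPM and 75.42 and 69.06 TPM. In H2023 it was 38.32 and 31.95 TPM and 52.44 and 49.93 TPM in normal culture, and 29.40 and 19.76 TPM and 32.55 and 31.20 TPM in oncosphere culture. A549 had the flatter profile, and in H2023 the labelled knockout lay above wild type in both cultures. The knockout change was -0.15 ± 0.11 in A549 normal culture (adjusted p 0.401), 0.54 ± 0.12 in H2023 normal culture (adjusted p 0.181) and 0.39 ± 0.22 in H2023 oncosphere culture (adjusted p 0.467), or 0.11 without wild-type replicate 2. In normal culture the knockout change differed between lines by 0.69 ± 0.17 (adjusted p 0.0377). With culture it changed by -0.09 ± 0.11 in A549 wild type (adjusted p 0.555) and by -0.52 ± 0.19 in H2023 wild type (adjusted p 0.0986). The H2023 wild-type estimate was -0.24 without oncosphere replicate 2 and -0.79 without replicate 1. In the labelled H2023 knockout ALDH7A1 fell by 0.67 ± 0.19 on the log2 scale (adjusted p 0.0431). That call was lost after centring on the median of all genes (-0.55) and with mitochondrial genes left out of the TPM (-0.45). Wild-type H2023 was lower than A549 by -1.15 ± 0.12 in normal culture (adjusted p 0.00485) and by -1.58 ± 0.21 in oncosphere culture (adjusted p 0.00815), or -1.31 without replicate 2.

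ALDH9A1 (chr1:165662216-165698863, minus strand), which makes the precursor of carnitine, was the steadiest member, with a highest level 1.89 times the lowest over the 16 libraries. It was 48.95 and 42.37 TPM in A549 wild-type normal culture and 36.69 and 34.25 TPM in the labelled knockout, and in oncosphere culture 60.95 and 55.21 TPM and 53.78 and 58.53 TPM. Its H2023 levels were 64.86 and 52.55 TPM and 54.94 and 53.79 TPM in normal culture, and 56.33 and 52.59 TPM and 48.00 and 53.12 TPM in oncosphere culture. In A549 the oncosphere libraries lay above the normal ones, and the H2023 libraries kept within 48.00 to 64.86 TPM. The knockout change in A549 normal culture was -0.35 ± 0.12 (adjusted p 0.112), and its difference between A549 cultures was 0.31 ± 0.16 (adjusted p 0.281). With culture it rose by 0.34 ± 0.11 in A549 wild type (adjusted p 0.0432) and by 0.65 ± 0.11 in the labelled A549 knockout (adjusted p 0.00599). Between wild types it differed by 0.35 ± 0.15 in normal culture (adjusted p 0.124) and -0.09 ± 0.12 in oncosphere culture (adjusted p 0.599), or -0.04 without replicate 2.

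ALDH1A1 and ALDH7A1 followed each other most closely of the members, with r = 0.99 and rho = 0.93 over the 8 group means, which share line and culture. ALDH3A2 and ALDH3B1 ran opposite (r = -0.89), as did ALDH1A3 and ALDH2 (r = -0.88). Among 8768 genes with a mean of at least 10 TPM, the most similar to ALDH1A1 was ALDH7A1, and that to ALDH3A1 was CXCL1 (r = 0.965). The most similar to ALDH2 was MIA3 (r = 0.977), to ALDH1A3 CEP250 (r = 0.993), to ALDH3A2 PEX2 (r = 0.958), to ALDH3B1 ARAP1 (r = 0.991), to ALDH7A1 TMEM147-AS1 (r = 0.995) and to ALDH9A1 RBM47 (r = 0.979). With 8 points and so many genes searched, values this high describe a ranking and carry no p.

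Of the other aldehyde dehydrogenase family, 9 of 11 listed genes were measured. The shares of all genes to set beside the list counts here and in the next paragraph are, for the labelled A549 knockout, 4.54% up and 6.28% down in normal culture and 6.04% up and 7.2% down in oncosphere culture. All calls of listed genes in the labelled A549 knockout in normal culture were lost when any 1 library was left out, and those in oncosphere culture under 3 of 4 omissions. ALDH1L1, which takes part in folate metabolism, rose in the labelled A549 knockout, from a mean of 0.205 to 5.945 TPM in normal culture (2.51 ± 0.28, adjusted p 0.0132) and from 0.47 to 8.045 TPM in oncosphere culture (2.64 ± 0.24, adjusted p 0.00496). It was the only one of the 9 called in normal culture, while in oncosphere culture 3 fell: ALDH1L2 (-2.09 ± 0.41, adjusted p 0.0321), ALDH6A1 (-1.51 ± 0.23, adjusted p 0.0164) and ALDH5A1 (-0.74 ± 0.15, adjusted p 0.0353). With culture, 4 of the 9 rose and 2 fell in A549 wild type, where 19% of all genes rose and 21.6% fell. Of the 9, 1 rose in the labelled A549 knockout (10.9% and 9.87% of all genes), 0 were called in H2023 wild type (3.96% and 17.4%), and 1 rose and 1 fell in the labelled H2023 knockout (7.68% and 19.2%).

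The retinoid list holds genes that supply retinaldehyde, bind retinoids or answer retinoic acid, and 23 of its 25 genes were measured. In the labelled A549 knockout 4 rose and 2 fell in normal culture and 3 rose and 2 fell in oncosphere culture. RDH10, which oxidises retinol to retinaldehyde, fell in both (-2.45 ± 0.23, adjusted p 0.01, and -2.10 ± 0.10, adjusted p 0.00194). With culture 11 rose and 4 fell in A549 wild type (19% and 21.6% of all genes) and 5 rose and 3 fell in H2023 wild type (3.96% and 17.4%), among them RARRES1, a retinoic acid-responsive gene, up by 4.94 ± 0.32 (adjusted p 5.36e-05) and 2.90 ± 0.47 (adjusted p 0.0101). In the labelled knockouts 8 rose and 3 fell in A549 (10.9% and 9.87% of all genes), and 5 rose and 2 fell in H2023 (7.68% and 19.2%). Of 19 measured alcohol, aldehyde and carbonyl oxidoreductases, 4 fell and 0 rose in the labelled A549 knockout in normal culture, led by AKR1B10 (-1.90 ± 0.26, adjusted p 0.019). In oncosphere culture 6 fell and 2 rose, led by ADH6 (-4.39 ± 0.22, adjusted p 0.00194) and ADH4 (-4.34 ± 0.19, adjusted p 0.00172), alcohol dehydrogenases that make aldehydes. Of 22 genes of the NRF2 list, the transcription factor pathway often tied to ALDH3A1, 1 rose and 1 fell in the labelled A549 knockout in normal culture. In its oncosphere culture 5 rose and 1 fell. In the labelled H2023 knockout limma called no listed gene. There the authors' deposited table called 9 NRF2 genes lower and 0 higher in normal culture, and 1 lower and 0 higher in oncosphere culture. Of the retinoid list it called 2 higher and 4 lower, then 1 and 2. Of the oxidoreductases it called 4 lower, then 1, and 0 higher. It called 10.8% and 5.07% of all genes to which it gives an adjusted p-value. With culture 2 of the NRF2 list rose and 11 fell in A549 wild type, and 1 rose and 4 fell in H2023 wild type. In the labelled knockouts 3 rose and 1 fell in A549, and 2 rose and 2 fell in H2023. Of the NRF2 list, 12 were higher and 1 lower in wild-type H2023 than in A549 in normal culture (22% and 12.4% of all genes), and 15 higher and 1 lower in oncosphere culture (15.8% and 17.8%). All calls between the lines were lost when either A549 library was left out. With culture 8 of the oxidoreductases rose and 4 fell in A549 wild type, and 5 rose and 1 fell in H2023 wild type. In the labelled knockouts 6 of them rose and 1 fell in A549, and 6 rose and 2 fell in H2023.

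Of the epithelial markers, KRT8 (765.43 to 5982.21 TPM), KRT18 (665.75 to 4515.49 TPM) and KRT7 (630.21 to 2862.69 TPM) were abundant in all libraries. CDH1 ran from 12.73 to 84.49 TPM, while KRT19 (0.29 to 797.79 TPM) and EPCAM (0.37 to 51.02 TPM) were close to 0 in some libraries. Of the 6 epithelial markers measured of 8, 4 fell in the labelled A549 knockout in normal culture, where 6.28% of all genes fell. Their summed level there was 2570.99 to 5009.28 TPM against 9174.73 to 9346.45 TPM in wild type. ALDH3A1 and ALDH3A2 fell in the same comparison, and the part of the epithelial change in that was not tested. The sums of the genotypes overlapped in A549 oncosphere culture. In H2023 the labelled knockout had the higher sums. They were 12325.81 to 13032.08 TPM against 8749.37 to 9396.92 TPM in normal culture, and 7766.26 to 8272.57 TPM against 4326.64 to 4565.21 TPM in oncosphere culture. Of the white blood cell markers 2 of 5 were measured, CD68 and LYZ. Their sum was 124.26 to 197.45 TPM in A549 wild-type oncosphere culture against 29.66 to 44.77 TPM in the labelled knockout. ALDH2 had its largest knockout change between the same groups. In H2023 oncosphere culture the CD68 and LYZ sums overlapped, at 30.87 to 89.37 TPM in wild type and 72.43 to 132.87 TPM in the labelled knockout. Fibroblast markers (3 of 6 measured) summed to at most 10.13 TPM and the endothelial marker PECAM1 (1 of 4 measured) reached 2.76 TPM. All libraries came from cultures of the A549 and H2023 lines, so these marker levels do not show that other cell types were present. Any link between the markers and the members was not tested.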

How the data were processed

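RNA was sequenced in 16 libraries, 2 in each of 8 groups, from stranded mRNA kits per the labels' protocols. Values were made with HISAT2 and StringTie on GRCh38, per the submitters' processing notes; the roles and versions of these tools and the annotation are not given in the sources used here. The authors deposited 4 tables, 1 per line and culture, with TPM per library, which keeps no depth, so the depth is unknown. Each library summed to between 991838 and 998125 TPM. The authors also deposited a mean normalized count (a signal per gene), a log2 fold change with its SE, a test statistic (a score) and a p-value with its adjusted p-value.

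Here log2(TPM + 1) was fitted with limma 3.58.1 (R 4.3.3) over all 18227 genes with Benjamini-Hochberg adjustment, threshold 0.05, pseudocount 1. The fit code was run on simulated normal noise with few changed genes. That checks the code and does not show how many calls in these data are right. Knockout comparisons used the 4 libraries of a culture, culture comparisons the 8 of a line, and line comparisons 4. Comparisons between tables set levels across values normalized separately. The members, the lists and the printed fold changes were chosen with earlier results of these data known. All members are named; other genes were named by size of change within lists and by r. Alternatives are given in the closing section.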

Additional observations from a re-analysis of the deposited data

Results flagged for a closer look

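The knockout change of 4 members differed between cultures in A549 (oncosphere minus normal, limma interaction term past the threshold): by -1.50 for ALDH2, 0.93 for ALDH3A1, 1.01 for ALDH3A2 and -1.01 for ALDH3B1, where 6.65% of all genes passed. It differed between the lines in normal culture (H2023 minus A549) for 5 members, by 1.04 for ALDH1A1, -0.92 for ALDH2, 1.44 for ALDH3A1, -0.68 for ALDH3B1 and 0.69 for ALDH7A1, where 12.3% of all genes passed. None of these 5 passed in a fit of all 16 libraries (adjusted p 0.0565 to 0.0775), which called 2199 genes. In oncosphere culture it differed for ALDH2, by 1.57, where 9.85% passed. No cause of these differences was tested.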

How the results depend on the processing

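Alternatives were computed for the 86 member fold changes reported. The other 26 fold changes, none of which passed, lay between -0.43 and 0.54 and are not reported; 20 of them changed sign under at least 1 alternative, 7 of them under one other than leaving out a library, and 1 passed under at least 1 alternative. They were set aside after their values were seen. The number of members called moved with the fit. In A549 normal culture the 2 knockout calls became 4 in the authors' deposited table, and in A549 oncosphere culture 1 became 2 there, 2 with the replicate block and 3 with all 16 libraries fitted. In H2023 normal culture 0 became 1 with a mean TPM of at least 1 and 2 in the authors' deposited table. With culture in H2023 wild type 1 became 2 with a mean TPM of at least 1, 2 with the replicate block and 3 with all 16 libraries. Between lines, the 5 interaction calls in normal culture became 0 with all 16 libraries, and the 1 in oncosphere culture became 3 with all 16 libraries and 2 from the authors' deposited tables. The cause was not tested.

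Leaving out 1 library gave 0 to 0 knockout calls in A549 normal and in A549 oncosphere culture. It gave 4 to 5 in A549 wild-type culture, 2 to 4 in the labelled A549 knockout, 1 to 3 in H2023 wild type and 2 to 4 in the labelled H2023 knockout. It gave 0 to 3 for the lines in normal culture, 0 to 4 in oncosphere culture, 0 to 3 for the difference between A549 cultures, and 0 to 5 and 0 to 3 for the differences between lines in normal and oncosphere culture. Smaller groups leave the lone library assumed to vary like the others. Signs turned for ALDH2 (knockout change from -0.07 to 0.26 in A549 normal and -0.17 to 0.51 in H2023 oncosphere culture), for ALDH3A1 (-0.01 to 0.74 in H2023 normal, -0.31 to 1.09 in H2023 oncosphere, -0.06 to 1.33 with culture in H2023 wild type, -1.15 to 0.25 between lines in oncosphere culture) and for ALDH3B1 (-0.17 to 0.21 with culture in the labelled A549 knockout). Without mitochondrial genes in the TPM, 80 of the 86 fold changes kept their sign and call, 4 newly passed and 1 lost its call. The remaining 1, ALDH7A1 with culture in A549 wild type, turned to 0.05. The members shifted by up to 0.24 with culture in H2023 wild type and by up to 0.22 in the labelled H2023 knockout. Same-numbered libraries deviated together with r of 0.037 to 0.124 in 3 knockout comparisons and 0.476 in H2023 oncosphere culture. The labels give only a shared number, so whether such libraries are paired cannot be told. If they are, an H2023 oncosphere knockout change without wild-type replicate 2 leaves the same-numbered knockout library without its partner. Adding the overlapping gene to ALDH2 was chosen after seeing the data.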
